A study of Mus musculus with 6 samples.

Results

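The enzymes and helpers that finish a collagen chain after it has been translated were examined in the hearts of 6 mice. They were chosen by name: Lox, Loxl1, Loxl2, Loxl3, Plod1, Plod2, P4ha1, P4ha3, Serpinh1 and Pcolce, 10 of the 27307 gene symbols on the array, read by 18 of its 56605 non-control probes. A probe was tested where 1 of the 2 groups, or both, had it well above background in all 3 hearts. That held for 14 of the 18 probes, covering 9 genes, and for 22998 probes of 13747 genes over the whole array. P4ha3 did not.

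Collagen chains are hydroxylated on proline and lysine inside the endoplasmic reticulum, which lets the triple helix hold its shape and prepares lysines for crosslinking. The folded procollagen is escorted out by the chaperone HSP47, trimmed of its end propeptides outside the cell, and then joined to its neighbours by lysyl oxidases, copper enzymes that oxidise lysine side chains. In the heart these steps are carried out mostly by fibroblasts, and crosslinked collagen is known to stiffen the myocardium.

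All hearts are labelled as coming from male C57BL/6J mice with a cardiac deletion of Clk4, a kinase of the CDC-like family (Clk4-cKO: Clk4 fl/fl with the α-MHC-MerCreMer transgene, induced by tamoxifen, so that Cre acts in cardiomyocytes). An AAV9 vector driven by the CMV promoter and carrying a P2A-GFP tag delivered either wild-type nexilin, a Z-disc protein (AAV NEXN-WT, 3 animals, the control), or nexilin carrying the S437E substitution, a glutamate that mimics a phosphorylated serine (AAV NEXN-S437E, 3 animals). Total RNA of the myocardium was labelled with Cy3 and hybridised to 6 one-colour arrays on 1 slide. In this model the vector is injected at 5 weeks of age, tamoxifen is given at 25 mg/kg per day for 5 days to mice aged 6 to 8 weeks, and the heart is analysed 3 weeks after the first tamoxifen dose. No heart labelled as having intact Clk4 and none labelled as free of vector was compared here, so every value below sets the hearts labelled NEXN-S437E against those labelled NEXN-WT.

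Levels are given on a log2 scale as the processed signal of a probe relative to the 75th percentile of the probes detected on all 6 arrays, so 0 is the percentile and each unit is a doubling. They rank arrays for one probe and do not rank probes or genes against each other. The share of spots well above background ran from 41.9% to 47.8%, no spot was saturated, and all 10 cardiomyocyte markers were well above background in both groups. NEXN-WT replicate 1 stood apart: over all tested probes it differed by a mean of 0.37 and 0.43 log2 units from NEXN-WT replicates 2 and 3, which differed from each other by 0.25, and over the 9 tested enzymes by 0.97 and 1.25, against 0.34 between the other two. Values without it are given for the tested enzymes and for many of the other genes and lists. A further difference ran along the groups. MerCreMer carries parts of the oestrogen receptor, which Esr1 encodes. Esr1 probe A_55_P2030883 read 0.65, 3.24 and 2.60 in NEXN-WT hearts and was not well above background in any NEXN-S437E heart, at least 269-fold lower (limma adjusted p = 0.0022). The other tested Esr1 probes, with NEXN-WT means of -5.03 and -5.20, were near background, so a drop of that size could not be read from them. A_65_P17231 had a log2 fold change of -0.66 (SE 0.34), with overlapping groups. A_52_P237077, also not well above background in any NEXN-S437E heart, was at least 1.64-fold lower. The remaining 4 were below background in both groups. Clk4 probe A_52_P445387 had a log2 fold change of 0.06 (SE 0.18) between the groups, and whether it lies in the deleted part of the gene was not established. Nexn probe A_52_P367520 had a log2 fold change of -0.06 (SE 0.26). The labels give the MerCreMer transgene to all 6 hearts. Where the Esr1 probe lies in the message, and so whether it reads the transgene, was not established. Whether all 6 hearts carried the transgene, and with it the Clk4 deletion, was not tested, and whatever the Esr1 difference marks cannot be told apart from the difference in nexilin vector in any fold change below. Group names follow the labels.

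Probe sequences are shown for 4 genes because they say what was hybridised: stretches of message with at least 1 reading frame that runs the length of the probe. The Loxl1, Loxl2 and Loxl3 probes identify 3 close relatives. The P4ha3 probe has an open frame that ends in a stop codon, in capitals, and it belongs to the one gene that missed the detection limit. All are 60 bases, written 5′ to 3′ in the direction of the message, on mouse build mm9.
Loxl1 A_51_P304239: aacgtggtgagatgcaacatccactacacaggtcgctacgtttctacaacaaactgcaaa
Loxl2 A_55_P2131348: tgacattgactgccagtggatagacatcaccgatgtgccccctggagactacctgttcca
Loxl3 A_51_P111315: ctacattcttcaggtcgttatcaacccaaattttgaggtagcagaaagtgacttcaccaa
P4ha3 A_55_P2003034: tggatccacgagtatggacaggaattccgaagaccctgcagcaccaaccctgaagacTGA
The Loxl1 probe lies at chr9:58138570-58138629 on the minus strand and the Loxl2 probe at chr14:70090017-70090076 on the plus strand. The Loxl3 probe covers chr6:83000426-83000598 on the plus strand, a span of 173 bases for 60 bases of probe, so it crosses an exon junction. The P4ha3 probe lies at chr7:107467431-107467490 on the plus strand.

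Of the 10 genes, 9 could be compared, and all 9 had a negative log2 fold change with NEXN-S437E, from -2.79 for Lox to -0.38 for Plod1, with a median of -0.78. The median over all 13747 genes tested was -0.0042. By the study's thresholds, at least 2-fold and an unadjusted p under 0.05, 3 of 9 were called lower (Lox, Loxl1 and Loxl3) and none higher, while 2.44% of all genes were called lower and 0.604% higher. Loxl3 entered the test through its NEXN-WT signal alone, and when a probe had to exceed background in each of the 6 hearts, 2 of 8 genes were called, and 2.1% of all genes in either direction. At an adjusted p under 0.05 in limma, with Benjamini-Hochberg adjustment over all 22998 probes, 0 of 9 were called, beside 0.153% of all genes. Unadjusted p was under 0.05 for 8 of 9 in limma, beside 10% of all genes that were lower by that threshold, and for 7 of 9 in the methods' t-test, beside 7.91%, which also left 0 past adjustment. It was under 0.05 for 2 of 9, Loxl1 and Loxl3, when the row of the slide entered limma as a block, beside 6.58% of all genes. Row 2 held no NEXN-WT heart, so the fold changes of that fit rest on NEXN-S437E replicate 1 alone. Loxl3 was not well above background in that heart. In 8 of 9 every NEXN-S437E heart lay below every NEXN-WT heart, a pattern seen in 14.8% of all genes. The exception was Plod2. Fewer cells of a type and less RNA per cell cannot be told apart in these whole-tissue samples.

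**Figure D1:**
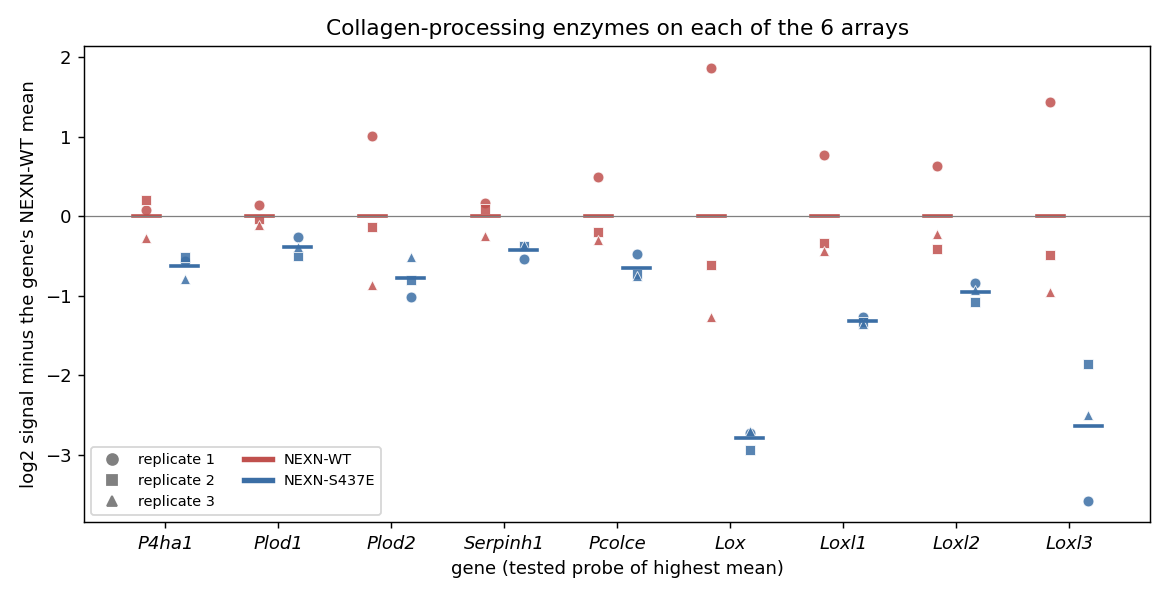
Log2 signal of each of the 9 tested genes on each array, minus that gene's NEXN-WT mean; circles, squares and triangles are replicates 1, 2 and 3, red NEXN-WT, blue NEXN-S437E, and bars are group means. NEXN-WT replicate 1 is the highest point of 8 of 9 genes, and the groups overlap only for Plod2.

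Proline hydroxylation comes first. P4ha1, the catalytic subunit of the main prolyl 4-hydroxylase, read -1.31, -1.19 and -1.67 in NEXN-WT hearts and -1.96, -1.90 and -2.18 in NEXN-S437E hearts with probe A_51_P458067. The groups did not overlap, and replicate 1 was not the highest of the NEXN-WT hearts, the only tested enzyme of which this was so. The log2 fold change was -0.62 (SE 0.17, 95% confidence interval -1.02 to -0.22, n = 3 per group, limma adjusted p = 0.18), short of 2-fold. It was -0.58 without NEXN-WT replicate 1. The second P4ha1 probe, A_65_P04309, is dimmer and reads a junction between exons far apart (chr10:58802114-58805464, a span of 3351 bases). It passed the background limit in 3 NEXN-WT hearts but only 1 NEXN-S437E heart, its groups overlapped, and its log2 fold change was -0.41 (95% confidence interval -1.20 to 0.38).

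P4ha3, an alternative catalytic subunit of the same enzyme, was close to the detection limit. Its stop-codon probe, printed above, was well above background only in NEXN-WT replicate 1, at -5.49. The other NEXN-WT hearts read -6.54 and -7.33 and the NEXN-S437E hearts -7.11, -8.39 and -8.14. The groups overlapped, and no fold is given for values that were mostly not above background. Its second probe, A_52_P220912, which crosses a junction within chr7:107434225-107441133, was above background on no array.

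Lysine hydroxylation was represented by Plod1 and Plod2. Plod1, lysyl hydroxylase 1, which modifies helical lysines, read -1.11, -1.29 and -1.36 in NEXN-WT hearts and -1.52, -1.75 and -1.64 in NEXN-S437E hearts. The groups were separate but close, 0.16 log2 units apart at their nearest points, and the log2 fold change of -0.38 (SE 0.14, 95% confidence interval -0.70 to -0.06, limma adjusted p = 0.25) was the smallest among the 9 genes. Without NEXN-WT replicate 1 the log2 fold change was -0.31. The other Plod1 probe, A_65_P07986, was well above background on 2 arrays of each group and was not tested.

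Plod2, lysyl hydroxylase 2, acts on the telopeptide lysines and so steers collagen toward the more stable crosslinks. It read -1.34, -2.49 and -3.22 in NEXN-WT hearts, with an SD of 0.95, and -3.36, -3.16 and -2.87 in NEXN-S437E hearts. NEXN-WT replicate 3 sat among the NEXN-S437E hearts. The log2 fold change was -0.78 (SE 0.43, 95% confidence interval -1.79 to 0.23, limma adjusted p = 0.40), and its second probe gave -0.52 (95% confidence interval -1.62 to 0.57). A single array moved the value widely: leaving out NEXN-WT replicate 1 gave -0.27, and leaving out replicate 3 of that group gave -1.21, where Plod2 was called lower (limma adjusted p = 0.15).

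Serpinh1 encodes HSP47, the collagen-specific chaperone of the endoplasmic reticulum. It read 3.01, 2.93 and 2.60 in NEXN-WT hearts and 2.31, 2.47 and 2.48 in NEXN-S437E hearts with probe A_51_P287069. The groups were 0.12 log2 units apart at their nearest, with a log2 fold change of -0.42 (SE 0.15, 95% confidence interval -0.78 to -0.06, limma adjusted p = 0.25). This was a level 74.6% of that in NEXN-WT hearts. Without NEXN-WT replicate 1 the log2 fold change was -0.34 (limma unadjusted p = 0.06). A second probe under the same symbol, A_55_P2740349, runs on the opposite strand (chr7:106494061-106494120, plus strand, against the minus strand of the first probe) and was above background on no array.

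Pcolce, the enhancer of procollagen C-proteinase that speeds removal of the carboxyl propeptide, read 4.20, 3.51 and 3.42 in NEXN-WT hearts and 3.24, 2.98 and 2.96 in NEXN-S437E hearts. The groups did not overlap, and replicate 1 was the highest heart of its group in both. The log2 fold change was -0.65 (SE 0.22, 95% confidence interval -1.17 to -0.12, limma adjusted p = 0.24). The second Pcolce probe, A_51_P371942, which overlaps the first by part of its length (chr5:138046379-138046438 against chr5:138046336-138046395, minus strand), gave -0.67 (SE 0.24). Without NEXN-WT replicate 1 the first probe gave -0.41.

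The crosslinking enzymes had the largest differences. Lox, the founding lysyl oxidase of collagen and elastin, read 1.23, -1.25 and -1.90 in NEXN-WT hearts with probe A_55_P2911063, a spread of over 3 log2 units. The NEXN-S437E hearts read -3.37, -3.57 and -3.34. All 3 lay below the lowest NEXN-WT heart by at least 1.44 log2 units, the widest gap among the 9 genes. Lox fell with a log2 fold change of -2.79 (SE 0.71, 95% confidence interval -4.46 to -1.12, limma adjusted p = 0.17), a level 14.5% of that in NEXN-WT hearts. Its second probe, A_66_P138929, passed the background limit in every NEXN-WT heart and in no NEXN-S437E heart. NEXN-S437E hearts were at least 3.44-fold lower (limma adjusted p = 0.24). Without NEXN-WT replicate 1 the Lox difference on the first probe was smaller, -1.85, and its adjusted p was 0.032.

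Loxl1, the lysyl oxidase family member best known for elastic fibres, read 2.85, 1.74 and 1.65 in NEXN-WT hearts and 0.81, 0.75 and 0.73 in NEXN-S437E hearts. The NEXN-S437E hearts had an SD of 0.04 and all lay below NEXN-WT. Loxl1 fell with a log2 fold change of -1.32 (SE 0.31, 95% confidence interval -2.04 to -0.60, limma adjusted p = 0.15), 2.49-fold. Without NEXN-WT replicate 1 it was -0.93, no longer 2-fold, while its adjusted p was 0.037.

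Loxl2, a family member with scavenger receptor domains that acts on collagen IV and fibrillar collagen, read 1.56, 0.51 and 0.70 in NEXN-WT hearts and 0.08, -0.15 and -0.00092 in NEXN-S437E hearts with probe A_52_P480351. The groups were separate, and the log2 fold change of -0.95 (SE 0.27, 95% confidence interval -1.58 to -0.32, limma adjusted p = 0.19) stopped just short of 2-fold. The Loxl2 probe printed above gave -0.71 (SE 0.23, limma adjusted p = 0.22). The first probe passed 2-fold once NEXN-WT replicate 2, NEXN-WT replicate 3 or NEXN-S437E replicate 1 was left out, at -1.16, -1.06 and -1.00, and was further from it without NEXN-WT replicate 1, at -0.63.

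Loxl3, a related lysyl oxidase with scavenger receptor domains, read -2.36, -4.27 and -4.74 in NEXN-WT hearts and -7.37, -5.65 and -6.28 in NEXN-S437E hearts. Only 1 NEXN-S437E heart passed the background limit, against 3 NEXN-WT hearts, so the gene entered the test through NEXN-WT alone. Loxl3 was called lower, with a log2 fold change of -2.64 (SE 0.66, 95% confidence interval -4.19 to -1.10, limma adjusted p = 0.16). Its size depended on how background was handled: with normexp background correction it was -0.78, under 2-fold. Without NEXN-WT replicate 1 it was -1.93.

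**Figure D2:**
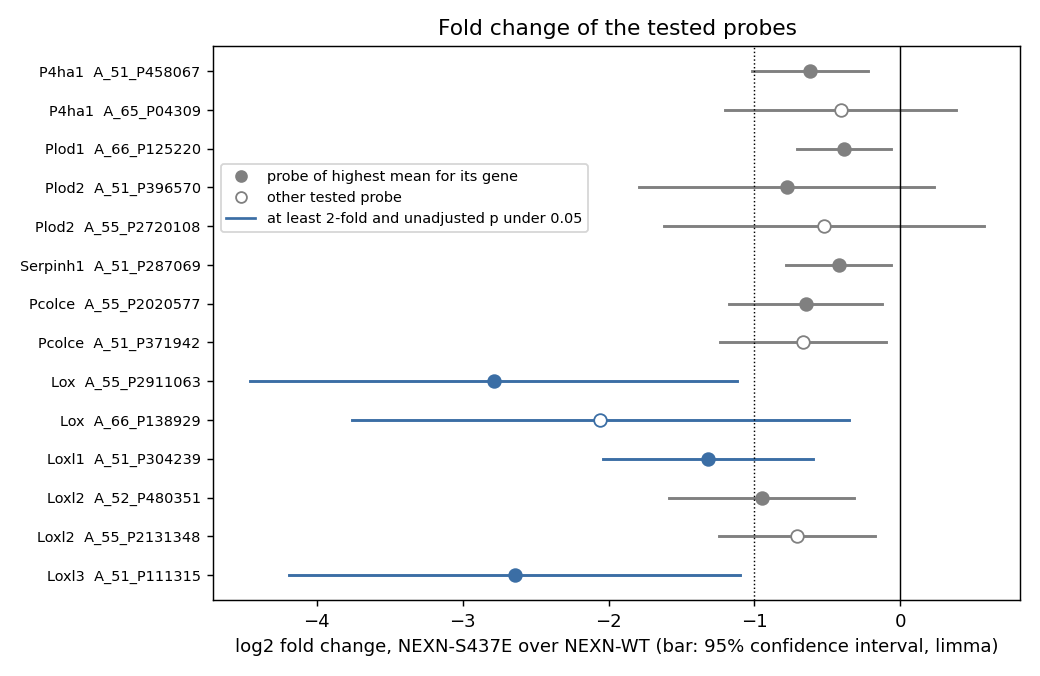
Log2 fold change of NEXN-S437E over NEXN-WT for the 14 tested probes, with 95% confidence intervals from limma; filled points are the probe of highest mean for its gene, blue marks probes at least 2-fold lower with an unadjusted p under 0.05, and the dotted line is 2-fold. The blue probes are Lox (both), Loxl1 and Loxl3, and the intervals of both Plod2 probes and of P4ha1 A_65_P04309 span 0.

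**Figure D3:**
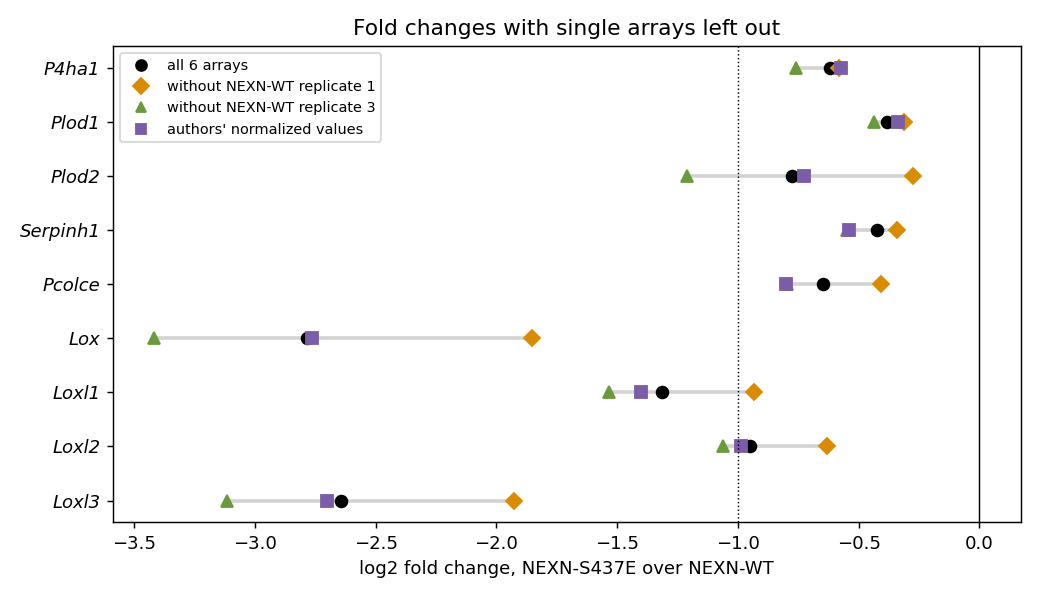
Log2 fold change of each of the 9 genes with all 6 arrays (black), with NEXN-WT replicate 1 left out (orange), with replicate 3 of that group left out (green) and from the deposited normalized values (purple). Every point is below 0; Lox runs from -3.42 to -1.85 and Loxl1 drops inside 2-fold without NEXN-WT replicate 1.

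Of the 9 genes, 8 were highest on NEXN-WT replicate 1, against 34% of all genes. With that array left out, 2 of 9 were called by the study's thresholds (Lox and Loxl3) and 2 at an adjusted p under 0.05 (Lox and Loxl1), with a median log2 fold change of -0.58. In that fit 1.9% of all genes were called by the study's thresholds in either direction, against 3.05% with all arrays, and 0.619% were lower at an adjusted p under 0.05, against 0.153%. Leaving out NEXN-WT replicate 3, which held the lowest value of its group for most of these genes, gave 5 called by the study's thresholds, and 4.5% of all genes. Position on the slide also ran partly with the groups: NEXN-S437E replicate 1 shared row 1 with the whole NEXN-WT group, and the other NEXN-S437E hearts were in row 2. Within row 1, which leaves 3 arrays against 1, limma takes the lone NEXN-S437E array to vary like the others, and its spread was not measured. The log2 fold changes there were -2.73 for Lox and -1.27 for Loxl1, neither of which was still called. Loxl3, the 1 enzyme called there, was not well above background on that NEXN-S437E array.

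The rest of the collagen assembly line was read from a list of 41 genes, of which 36 were tested. Of these 36, 10 were called lower and none higher by the study's thresholds, beside 2.44% of all genes called lower, and 0 at an adjusted p under 0.05 in limma, beside 0.153% (15 of 36 were lower with an unadjusted p under 0.05, beside the 10% of all genes). Their median log2 fold change was -0.43. Of the 36, 28 were highest on NEXN-WT replicate 1. Without that array 5 were called, beside 1.48% of all genes called lower, and the median was -0.22.

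Among the other genes of prolyl hydroxylation, 1 of 8 was called lower, beside 2.44% of all genes. It was P3h2, a prolyl 3-hydroxylase, at -1.03 (SE 0.28). Of the 4 tested genes of lysyl hydroxylation and glycosylation none was called, and the one of smallest p was Plod3, lysyl hydroxylase 3, at -0.38 (SE 0.14). Of 8 genes of procollagen folding and export, 1 was called lower: Kdelr3, a receptor that returns proteins to the endoplasmic reticulum, at -1.03 (SE 0.21). Neither call held without NEXN-WT replicate 1, where P3h2 was at -0.74 and Kdelr3 at -0.82. Plod3 was at -0.33 there.

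Propeptide removal had 2 of 4 tested genes called lower, beside 2.44% of all genes. These were Adamts2, the procollagen N-proteinase, at -1.59 (SE 0.39), and Bmp1, the C-proteinase that Pcolce assists, at -1.00 (SE 0.25). Without NEXN-WT replicate 1 Adamts2 was still called, at -1.10, and Bmp1 was not, at -0.71. The transglutaminase Tgm2, a crosslinker that works without lysyl oxidase, had a log2 fold change of -0.03 (SE 0.14), with overlapping groups.

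Matrix proteins that bind or guide lysyl oxidases had 5 of 7 genes called lower, and all 7 lay lower without overlap, beside 2.44% and 14.8% of all genes. Fmod, fibromodulin, which binds collagen and Lox, was well above background in only 2 NEXN-S437E hearts and had a fitted log2 fold change of -3.37 (SE 0.84). Postn, periostin, which helps activate Lox through Bmp1, was at -3.06 (SE 0.67). Eln, the elastin substrate, was at -2.25 (SE 0.57), Thbs1, thrombospondin 1, at -1.54 (SE 0.61), and Fn1, fibronectin, at -1.42 (SE 0.38). All 7 were highest on NEXN-WT replicate 1. Without it 3 were called (Fmod at -2.30, Postn at -2.17 and Eln at -1.51), while Thbs1 was at -0.78 and Fn1 at -0.93. Of 4 turnover genes, 1 was called lower: Ctsk, the collagen-degrading cathepsin K, at -1.59 (SE 0.40), and at -1.08 without NEXN-WT replicate 1, where it was still called.

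The substrates themselves stood beside their enzymes. Of 6 tested fibrillar collagen genes, 5 were called lower, beside 2.44% of all genes. At an adjusted p under 0.05 in limma 0 were called, beside 0.153%. Their median log2 fold change was -1.60. One of the 5, Col5a2, was well above background in no NEXN-S437E heart and was at least 3.19-fold lower. Col1a1 was at -1.90 (SE 0.33), Col5a1 at -1.64 (SE 0.31) and Col3a1 at -1.42 (SE 0.25). All 6 were highest on NEXN-WT replicate 1, beside 34% of all genes. Without it 5 were called, beside 1.48% of all genes called lower, with a median of -1.14. Col1a1 was then at -1.48, Col5a1 at -1.27 and Col3a1 at -1.12. Genes of the hypoxia response, a program known to raise collagen hydroxylases and lysyl oxidases, had 0 of 11 called. Their median was 0.14, and 0.08 without NEXN-WT replicate 1. Bnip3 was at 0.51 (SE 0.16), Ldha at 0.41 (SE 0.17) and Pdk1 at 0.21 (SE 0.12). Limma gave 2 of 11 an unadjusted p under 0.05, both higher. The share of all genes higher by that threshold was not counted. The part of this program in the enzyme differences was not tested. General folding genes of the endoplasmic reticulum had 0 of 11 called and a median of -0.07, and of -0.03 without NEXN-WT replicate 1. Pdia4 was at -0.40 (SE 0.14), Canx at 0.32 (SE 0.18) and Pdia3 at -0.34 (SE 0.26). Without that array they were at -0.32, 0.33 and -0.03. Limma gave 1 of 11 an unadjusted p under 0.05, lower, beside 10% of all genes that were lower by that threshold.

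**Figure D4:**
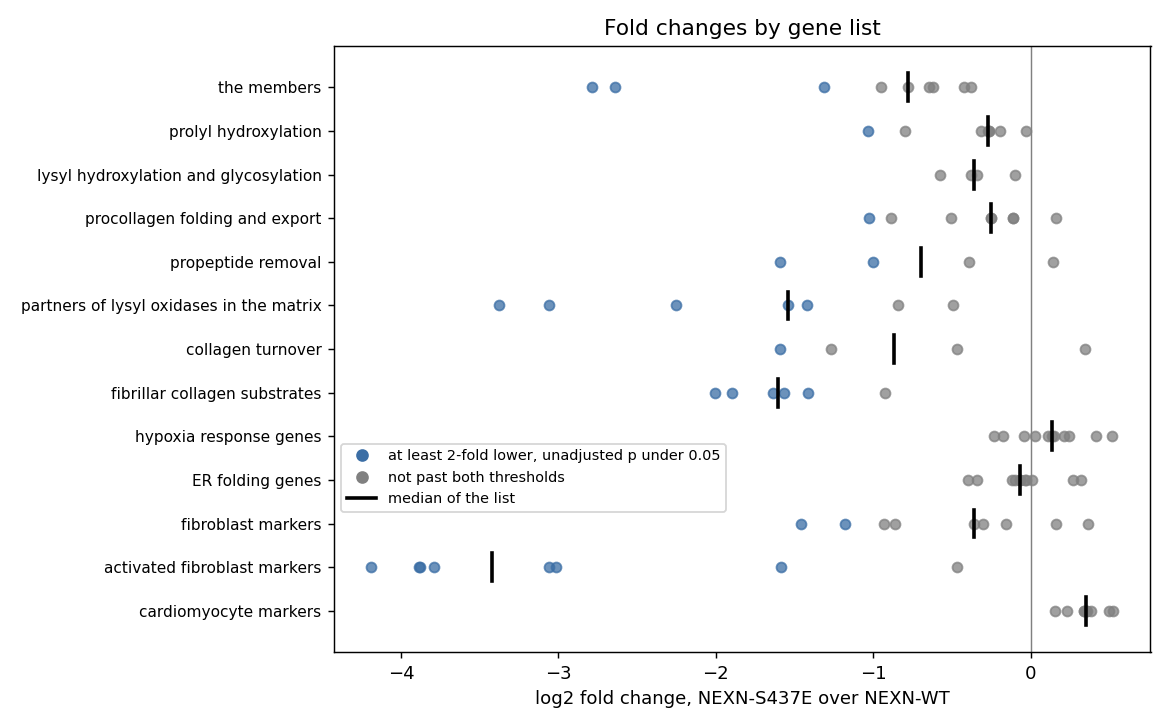
Log2 fold change of NEXN-S437E over NEXN-WT for every tested gene of the lists drawn; blue points are at least 2-fold lower with an unadjusted p under 0.05, grey points are not, and bars are list medians. The medians of the activated fibroblast markers (-3.42), fibrillar collagens (-1.60) and lysyl oxidase partners (-1.54) lie furthest left of the lists drawn, and those of hypoxia response (0.14) and cardiomyocyte markers (0.35) lie right of 0.

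Markers of several cell types also differed between the groups. All 8 markers of activated fibroblasts were tested (Cthrc1 was well above background in only 1 NEXN-S437E heart). Of these 7 were called lower, beside 2.44% of all genes. At an adjusted p under 0.05 in limma 1 was called (Cilp), beside 0.153%. Their median log2 fold change was -3.42. Their summed signal, in units of the percentile, was 8.85 to 52.8 in NEXN-WT hearts and 2.11 to 2.33 in NEXN-S437E hearts. All 8 were highest on NEXN-WT replicate 1, beside 34% of all genes. That array alone held the sum of 52.8, and the other NEXN-WT hearts had sums of 10.72 and 8.85. Without it 7 were called, beside 1.48% of all genes called lower, with a median of -2.39. With all arrays, Ltbp2 was at -3.88 (SE 0.67) and Meox1 at -1.58 (SE 0.41). Of 9 general fibroblast markers, 2 were called lower, beside 2.44% of all genes. Their median was -0.36, with sums of 135 to 172 against 124 to 132. Gsn was at 0.16 (SE 0.12), Dcn at -0.16 (SE 0.13) and Pi16 at -1.18 (SE 0.21). Without NEXN-WT replicate 1, 1 of 9 was called (Mfap5, at -1.04), with a median of -0.29, and Pi16 was at -0.98. Of 10 cardiomyocyte markers none was called, and all had positive values, with a median of 0.35 and sums of 381 to 451 against 525 to 548. Mb was at 0.38 (SE 0.13), Tnni3 at 0.52 (SE 0.21) and Actc1 at 0.16 (SE 0.18). Without NEXN-WT replicate 1 the median was 0.30, with Mb at 0.30, Tnni3 at 0.29 and Actc1 at -0.03, so not all values were positive. The part of these cell types in the enzyme differences was not tested.

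Other cell types were read in the same way. Called lower were 4 of 6 tested T cell markers, 1 of 2 B and plasma cell markers and 1 of 5 skeletal muscle markers. Beside these counts stand 2.44% of all genes called lower. One of the calls in each list was of a gene that entered the test through NEXN-WT alone and was well above background in no NEXN-S437E heart (Cd3g, Jchain and Tnnt3), so the B and plasma cell and skeletal muscle lists held no other call. The medians were -1.95, -2.30 and 0.34, and with these genes at their lower bounds -1.48, -1.41 and 0.34. Without NEXN-WT replicate 1 the medians were -2.17, -2.13 and 0.08. In that fit 4, 1 and 0 genes were called lower, beside 1.48% of all genes. None was called of 10 macrophage, 8 endothelial, 9 smooth muscle and pericyte, and 1 adipocyte markers, with medians of -0.05, -0.04, -0.16 and 0.29. Without NEXN-WT replicate 1 these medians were 0.02, -0.15, -0.30 and 0.32, again with none called. Adipoq and Plin1, defining markers of adipocytes, were not well above background on all arrays of either group.

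The genes whose values ran most like the 9 enzymes were sought among 12915 genes well above background on all 6 arrays. Each profile was centred on its mean over the arrays, and likeness was the root mean square difference from the enzymes' mean profile. The enzymes' mean profile took values of 1.32, 0.37 and 0.07 in NEXN-WT hearts and of -0.67, -0.54 and -0.56 in NEXN-S437E hearts. Nearest were Col6a1, a chain of collagen VI, at a distance of 0.08 log2 units, then Fat1, a large cadherin, at 0.09, the homeobox gene Hoxd8 at 0.09, the membrane protease Adam8 at 0.10 and Tro at 0.10. Among the enzymes, Loxl1 lay nearest to the mean profile, at 0.11, and Lox and Loxl3 furthest, at 1.00 and 0.94. The nearest genes were selected for this pattern, so their differences are a description.

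**Figure D5:**
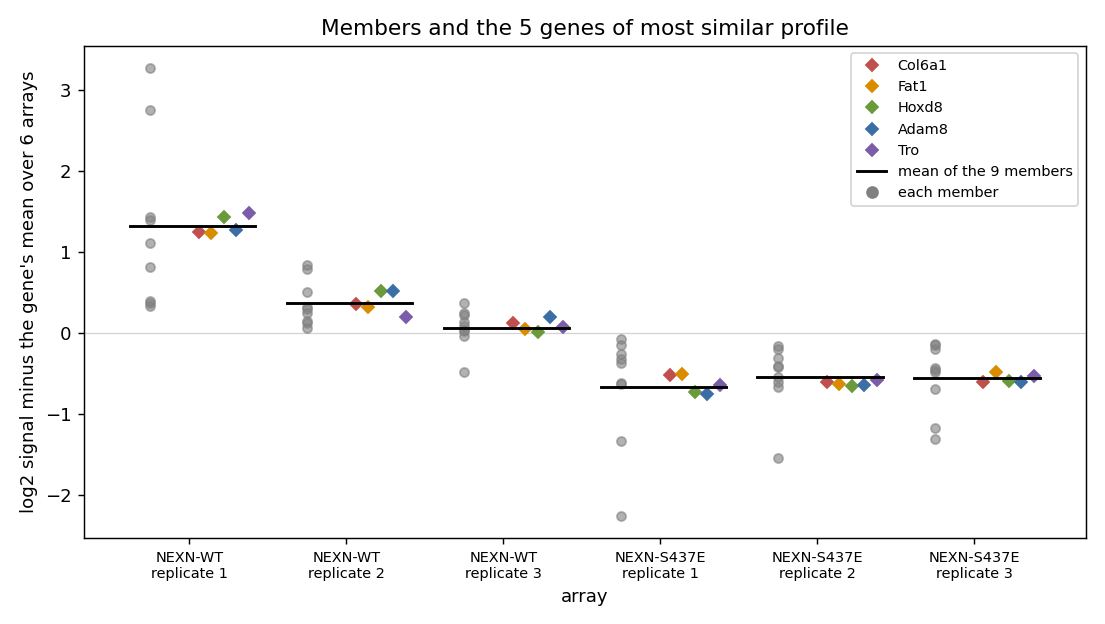
Log2 signal on each of the 6 arrays minus each gene's mean over the arrays: grey circles are the 9 tested enzymes, coloured diamonds the 5 genes of most similar profile, and black bars the enzymes' mean. The mean is 1.32 on NEXN-WT replicate 1 and between -0.67 and -0.54 on the NEXN-S437E arrays.

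Promoters were held for 5 of the 10 genes (Plod1, P4ha1, P4ha3, Serpinh1 and Pcolce; RefSeq, GRCm38.p6), each from 250 bases before to 50 after the start of transcription. Both strands were searched for ACGTG, the hypoxia response element core, GGGCGG (Sp1), TATAAA, the box that sets the start site of some genes, CCAAT (NF-Y), TGANTCA (AP-1) and CAGAC (SMAD). The 250 bases before the start are shown for the 4 genes that had a tested probe, 5′ to 3′ in the direction of the gene, with every match in capitals; a match on the other strand appears as its reverse complement.
P4ha1: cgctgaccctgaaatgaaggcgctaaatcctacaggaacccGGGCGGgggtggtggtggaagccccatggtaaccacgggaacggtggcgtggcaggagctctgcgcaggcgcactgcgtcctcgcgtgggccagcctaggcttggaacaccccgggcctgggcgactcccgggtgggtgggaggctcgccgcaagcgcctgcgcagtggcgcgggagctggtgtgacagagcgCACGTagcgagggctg
Plod1: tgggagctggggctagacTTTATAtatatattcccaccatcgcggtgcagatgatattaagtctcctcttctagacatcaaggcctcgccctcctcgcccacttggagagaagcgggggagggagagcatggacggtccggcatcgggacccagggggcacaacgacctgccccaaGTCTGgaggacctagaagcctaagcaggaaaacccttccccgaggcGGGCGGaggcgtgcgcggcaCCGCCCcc
Serpinh1: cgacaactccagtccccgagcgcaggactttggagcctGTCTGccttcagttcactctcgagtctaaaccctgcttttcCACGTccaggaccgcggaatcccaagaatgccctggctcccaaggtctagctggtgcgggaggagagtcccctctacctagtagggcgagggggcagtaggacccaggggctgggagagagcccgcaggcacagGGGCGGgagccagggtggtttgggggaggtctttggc
Pcolce: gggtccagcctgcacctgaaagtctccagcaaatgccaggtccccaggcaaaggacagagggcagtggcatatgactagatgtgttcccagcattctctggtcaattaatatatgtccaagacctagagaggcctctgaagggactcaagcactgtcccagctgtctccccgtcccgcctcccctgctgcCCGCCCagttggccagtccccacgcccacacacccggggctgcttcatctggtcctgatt
These lie at chr10:59323046-59323295 (plus strand), chr4:147936777-147937026, chr7:99353240-99353489 and chr5:137611405-137611654 (all minus strand). GGGCGG was in all 5 promoters and in 35.7% of the 32851 mouse promoters in the table. P4ha3, not shown, held 5 copies, some of which overlap each other. ACGTG was in P4ha1, 16 bases before the start, and in Serpinh1, 171 before, and in 19.6% of all promoters. CAGAC was in Plod1 and Serpinh1 and in 49.6% of all. TATAAA was in Plod1, 232 bases before the start, in P4ha1 past the start, and in 13.6% of all. CCAAT and TGANTCA were in none of the 5, and in 37.4% and 7.81% of all. No match overlapped a match of another motif. A match of letters is a description and not a binding site.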

How the data were processed

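Myocardium of 6 mice labelled Clk4-cKO (3 AAV NEXN-WT, 3 AAV NEXN-S437E) was profiled on Agilent SurePrint G3 Mouse arrays (v2, 8x60K; probe positions on mm9). The deposited scanner files hold background-subtracted intensities from Feature Extraction 10.7.1.1, per the submitters' processing notes. The authors also deposited normalized log2 values, with the same distribution on every array, as quantile normalization gives; the software is not given in the sources used here. The table's signals matched the mean of each probe's spots within a relative 0.001 for 99.8% of values.

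Control and outlier spots were left out, spots of a probe were averaged as log2 processed signal, and each array's 75th percentile over the probes well above background on all 6 arrays was subtracted (signals of 692 to 1519 at the percentile). All probes were an alternative. Probes well above background on 3 of 3 arrays of a group were tested with limma 3.58.1 in R 4.3.3. A gene is counted by its tested probe of highest mean. Array number limits the precision. For a probe above background in only 1 group, a lower bound of the fold was computed from the dimmest detected signal of each array.

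The members, lists and tests were chosen with earlier results of these data known. Named were all members; in each list of the pathway, the genes called, or otherwise the one of smallest p; up to 3 of smallest p in the context lists and up to 3 of highest mean in the main marker lists; the 5 genes of most similar profile; and Esr1, Clk4 and Nexn as checks. Col5a2, Cthrc1, Cd3g, Jchain, Tnnt3, Adipoq and Plin1 were named outside this rule, after their values were seen, to mark signals near background, and Mfap5 because it was a single call. On simulated data for this comparison, with 22987 probes, 98 of 100 probes changed by 1.5 log2 units were recovered by the study's thresholds and 75 by adjusted p. Of the unchanged probes, 78 and 6 were called. The simulated noise was independent between probes, with the same SD in both groups. It held no array that stood apart as NEXN-WT replicate 1 did, so these rates do not cover that feature of the data. Sequences came from the deposited table and RefSeq, read with Python 3.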

Additional observations from a re-analysis of the deposited data

How the results depend on the processing

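In all, 20 alternatives were tried, 18 of them planned. None reversed the direction of any of the 9 enzymes. Of the values of single enzymes under these alternatives, 169 kept their side of the thresholds, 6 lost the call and 4 gained it. The enzymes called by the study's thresholds (3, beside 3.05% of all genes in either direction) numbered 2 to 5 with single arrays left out. In those fits 1.9% to 4.5% of all genes were called. The enzymes' median log2 fold change (-0.78) ran from -1.06 to -0.58 there. At an adjusted p under 0.05, 6 enzymes were called with estimated array weights (5.84% of all genes lower at that threshold). These weights were lowest for NEXN-WT replicate 1 (0.23). With single arrays left out, 0 to 2 enzymes passed the adjusted p, beside 0.0291% to 0.619% of all genes that were lower. The other collagen-processing genes called (10) numbered 5 with array weights, beside 2.44% of all genes in either direction. With single arrays left out they numbered 5 to 13, beside 1.9% to 4.5%. They also numbered 5 without both replicates numbered 1, beside 1.94%. That setting and slide row 1 alone were chosen after seeing the data. The cause of these differences was not tested. With the slide row as a block, 2 enzymes (Loxl1 and Loxl3) rather than 8 had an unadjusted p under 0.05 (6.58% of all genes, rather than 10%, were lower by that threshold). Slide row 1 alone holds 1 NEXN-S437E array, assumed to vary like the others. The fold changes with the row as a block rest on that array too.

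Replicate numbers did not pair the hearts: the correlation of the same-numbered arrays' deviations was -0.15, -0.03 and -0.18. With the replicate block, 3 enzymes and 11 other collagen-processing genes were called by the study's thresholds, beside 3.1% of all genes in either direction. At an adjusted p under 0.05 in limma 0 enzymes were called, beside 0.0509% of all genes that were lower. The enzymes' median was -0.78. Values near background, such as those of Loxl3 and P4ha3, limit what these arrays can measure.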
